A study of Mus musculus with 3 samples.

Results

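The genes described here encode the contractile apparatus of smooth muscle, its non-muscle counterparts and regulators, and markers of pericytes, the mural cells that wrap small vessels. The set of 51 genes was chosen by name. A gene was measured if at least 4 probesets of the array named it alone in the platform annotation, by its current or former symbol, and 50 of the 51 were, among 18865 genes measured in all. Rock2 was not analysed here. The genes were divided by role into 17 contractile genes, 20 measured cytoskeletal and regulator genes, and 13 pericyte and vascular tone genes. Mkl1, Gucy1a3 and Gucy1b3 are now called Mrtfa, Gucy1a1 and Gucy1b1.

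The RNA came from freshly isolated GFP-positive cells of the bone marrow of C57BL/6 mice in which the nestin promoter controls GFP. The cells were sorted by flow cytometry, and the RNA was amplified and hybridised to 3 arrays, which form 1 group without a control group. The labels give neither the age nor the sex of the mice, nor whether each sample was a separate mouse or sort. The p-values therefore measure the spread between 3 samples that may be technical replicates. The reporter marks cells in which the promoter was active, and the gate may hold more than 1 cell type.

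Smooth muscle cells contract when calcium activates myosin light chain kinase, which phosphorylates the regulatory light chain so that myosin pulls on actin. Myosin phosphatase reverses this step, and nitric oxide relaxes the cell through soluble guanylate cyclase and the kinase encoded by Prkg1. The transcription factor SRF, with its coactivators myocardin and the MRTFs, drives many genes of this apparatus, and most cell types use non-muscle versions of the same proteins for adhesion and movement. In marrow, mural cells and reticular stromal cells lie around the same vessels.

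Each gene's value was the median of its probesets on the log2 scale. It was compared with a background threshold on the same array, the 95th percentile of 355 olfactory, vomeronasal and bitter taste receptor genes, which stood at 5.40, 5.66 and 5.64 on arrays 1, 2 and 3. A gene was called above background at an adjusted p below 0.05 in limma's one-sided test over all genes. Probe affinity enters these values, so levels are not compared between genes. The sorted cells had the signal of marrow stroma, with 10 of 10 stromal genes above background, against 50.6% of all genes. Among them were Cxcl12 (11.75 ± 0.14, SD, n = 3), Cdh11 (11.63 ± 0.17) and Adipoq (11.60 ± 0.12), while Foxc1 had the smallest margin (7.93 ± 0.32). Nestin itself (Nes) had values of 5.97, 5.21 and 5.56 and was not called (adjusted p = 0.757). In bulk RNA, fewer cells of a type and less RNA per cell cannot be told apart.

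Of the 50 measured genes, 37 (74.0%) lay above background, where 50.6% of all 18865 genes did. The median margin over the threshold was 1.84 on the log2 scale for these genes, against 0.50 for all genes. By class, 12 of 17 contractile genes, 17 of 20 cytoskeletal and regulator genes and 8 of 13 pericyte and vascular tone genes were called, and the median margins were 1.46, 2.35 and 1.78. With the 99th percentile of the background genes as the threshold, 24 of the 50 were called, where 20.1% of all genes were.

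**Figure D1:**
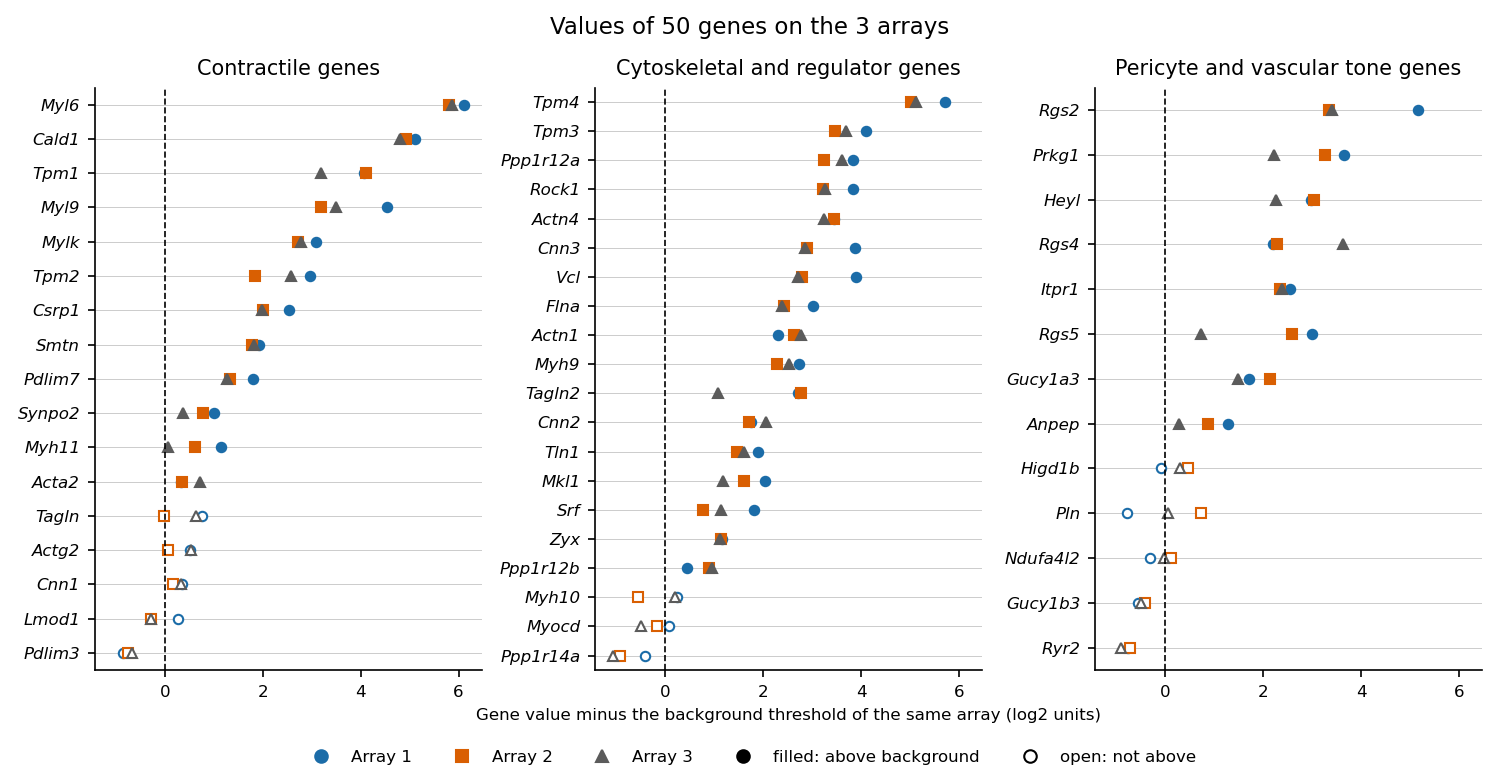
Each row is a gene and each symbol an array (circle, array 1; square, array 2; triangle, array 3), placed at the gene's value minus the background threshold of that array in log2 units; filled symbols mark genes above background in limma's test. The genes with open symbols, 13 in all, lie near or below the dashed line at 0, and those of Pdlim3, Ppp1r14a, Gucy1b3 and Ryr2 lie below it on all 3 arrays.

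Among contractile genes, those of the light chains, the myosin kinase, caldesmon, tropomyosins and smoothelin were called, Acta2 and Myh11 were called with small margins, and 5 genes were not called. Myl6, the essential light chain used by smooth muscle and non-muscle myosins, had 11.51, 11.45 and 11.50 on arrays 1, 2 and 3, a margin of 5.92 (adjusted p = 2.67e-07). Myl9, a regulatory light chain, had 9.93, 8.85 and 9.13. Mylk, the kinase that phosphorylates this light chain, had 8.48, 8.37 and 8.41, a margin of 2.85 (adjusted p = 2.41e-06). The 3 arrays differed by no more than 0.10 for Mylk and 0.06 for Myl6, and by 1.08 for Myl9, which was highest on array 1.

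Cald1, which encodes the actin-binding protein caldesmon, had 10.52, 10.59 and 10.44 (adjusted p = 2.82e-07). Tpm1 and Tpm2 encode tropomyosins, which lie along the actin filament. Tpm1 had 9.46, 9.75 and 8.84, and Tpm2 had 8.36, 7.50 and 8.20. The LIM protein gene Csrp1 stood at 7.73 ± 0.17 (SD, n = 3), the smoothelin gene Smtn at 7.41 ± 0.07, and Pdlim7, which encodes another LIM protein of actin filaments, at 7.03 ± 0.15. Synpo2, the gene of an actin-bundling protein, stood at 6.28 ± 0.23 and was called with a smaller margin of 0.71 (adjusted p = 0.00832).

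Acta2, which encodes smooth muscle alpha-actin, had 5.73, 6.01 and 6.34 on arrays 1, 2 and 3, a margin of 0.46. It was called at an adjusted p of 0.0403, and the call was lost without array 1 (adjusted p = 0.0513), without array 2 (0.0922) and without array 3 (0.22). Myh11, the smooth muscle myosin heavy chain, had 6.54, 6.26 and 5.69 (adjusted p = 0.0362), and its call was lost without array 1 (adjusted p = 0.19) and without array 2 (0.0548). All values of both genes were above the threshold of their array, and that of Myh11 on array 3 was the closest to it. Without array 2, limma used the same variance for all genes, so those adjusted p-values leave out each gene's own spread.

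The 5 contractile genes that were not called were Actg2, Cnn1, Tagln, Lmod1 and Pdlim3. Actg2, the gene of enteric smooth muscle gamma-actin, had 5.91, 5.71 and 6.17 (adjusted p = 0.0912). Cnn1, the gene of calponin-1, had 5.75, 5.83 and 5.96 (adjusted p = 0.144). Values of these genes exceeded the threshold on all 3 arrays, but by margins of 0.36 and 0.28 that did not pass the test. Tagln, which encodes transgelin (SM22-alpha), had 6.16, 5.63 and 6.27 (adjusted p = 0.0664), with array 2 just below its threshold. Tagln was called without array 2 (adjusted p = 0.0261, with the same variance for all genes), with the mean over probesets (0.00178) and with 1 threshold for all arrays (0.0465). With the 90th percentile of the background genes as the threshold, Actg2 (adjusted p = 0.00415), Cnn1 (0.00375) and Tagln (0.00473) were called. This gave 15 of 17 contractile genes, where 63.5% of all genes were called. Actg2 was also called with at least 8 probesets a gene (0.0407). The leiomodin gene Lmod1 had 5.66, 5.36 and 5.35, and the actinin-binding LIM protein gene Pdlim3 had 4.55, 4.90 and 4.96. A call that was not made does not show that a transcript was absent. Actins, tropomyosins and calponins are similar in sequence, and the share of signal from related transcripts was not tested.

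Non-muscle actin crosslinkers and motor proteins were called in 8 of 9 cases (88.9%, against 50.6% of all genes). Tpm4, a tropomyosin of non-muscle cells, had 11.11, 10.68 and 10.77 on arrays 1, 2 and 3, a margin of 5.29 (adjusted p = 3.12e-07), and Tpm3 stood at 9.32 ± 0.18 (SD, n = 3). The alpha-actinin genes Actn4 and Actn1, whose products bundle actin filaments, stood at 8.95 ± 0.14 and 8.13 ± 0.38. Myh9, the heavy chain of non-muscle myosin IIA, had 8.14, 7.93 and 8.18 (adjusted p = 5.11e-06). Myh10, the heavy chain of non-muscle myosin IIB, had 5.64, 5.09 and 5.83 and was not called (adjusted p = 0.894). Of the 3 myosin heavy chain genes in the set, Myh9 had a margin of 2.52 over the threshold, Myh11 one of 0.60 and Myh10 one of -0.046.

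The calponin and transgelin families held both called and uncalled genes. Cnn2 had 7.15, 7.38 and 7.70 (adjusted p = 2.65e-05) and Cnn3 had 9.29, 8.55 and 8.50 (adjusted p = 5.42e-06), while Cnn1, the smooth muscle calponin, was not called. Tagln2, the broadly expressed relative of Tagln, had 8.11, 8.43 and 6.72 (adjusted p = 2.86e-04). Array 3 was the lowest for Tagln2, and all 3 values lay above the threshold. The differences between paralogues themselves were not tested.

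All 4 focal adhesion genes were called, where 50.6% of all genes were. Vcl, the gene of vinculin, which links integrin adhesions to actin, had 9.30, 8.45 and 8.36 on arrays 1, 2 and 3. Filamin A (Flna), an actin crosslinker, stood at 8.18 ± 0.21 (SD, n = 3), and talin-1 (Tln1), which activates integrins, at 7.22 ± 0.09. Zyx, the gene of zyxin, a protein of stressed actin fibres, stood at 6.70 ± 0.13 with a margin of 1.14 (adjusted p = 3.54e-04).

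**Figure D2:**
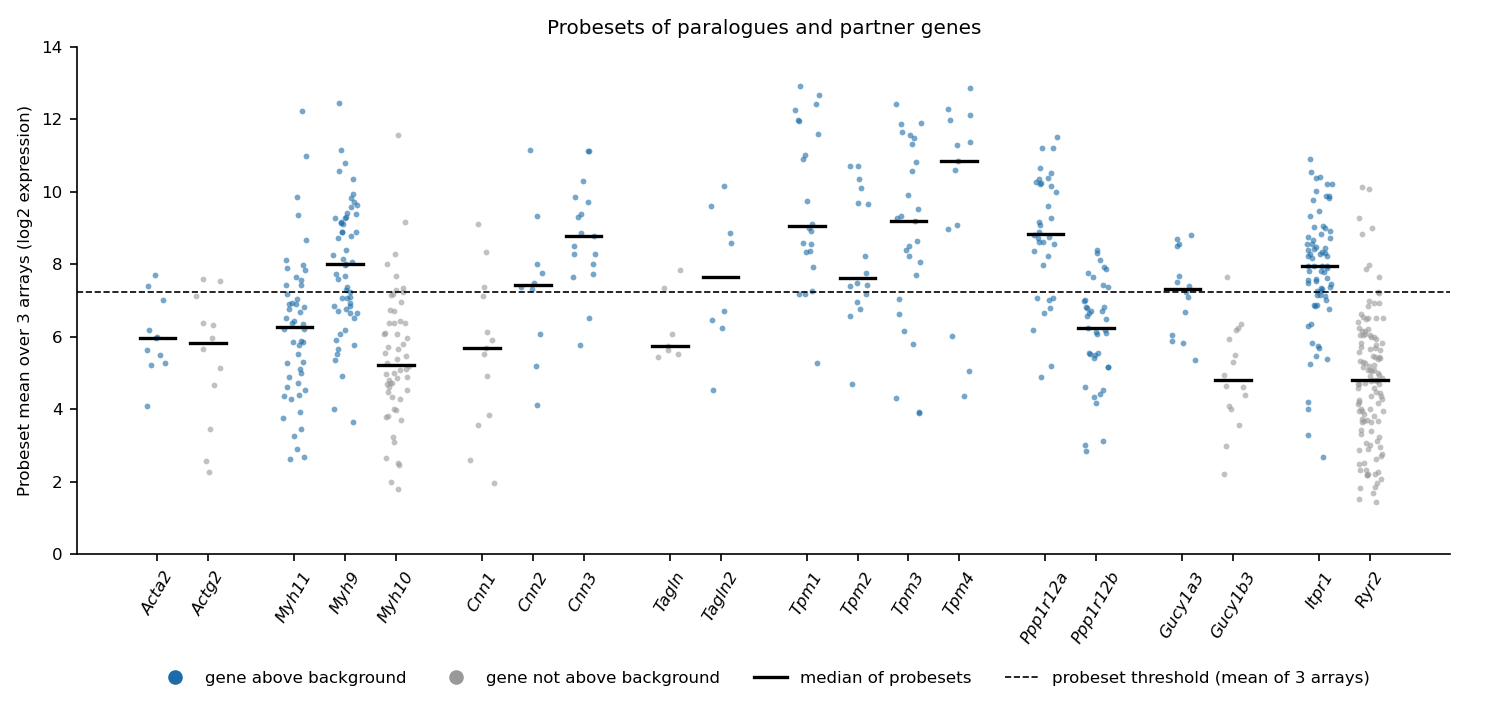
Each point is 1 probeset at its mean log2 expression over the 3 arrays, grouped by related or partner genes along the horizontal axis; the bar is the median of a gene's probesets and the dashed line the probeset threshold averaged over the arrays. Single probesets of genes that were not called still lie high, up to 11.56 for Myh10 and 10.14 for Ryr2.

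Of the genes that regulate myosin phosphorylation, the widely expressed ones were called. Ppp1r12a, the targeting subunit of myosin phosphatase, had 9.24, 8.90 and 9.24, and Rock1, which encodes a kinase that restrains this phosphatase, had 9.23, 8.87 and 8.91. Ppp1r12b, the related targeting subunit that is prominent in striated muscle, had 5.85, 6.56 and 6.60, a margin of 0.77 (adjusted p = 0.00505). Ppp1r14a, which encodes the smooth muscle phosphatase inhibitor CPI-17, had 4.99, 4.73 and 4.56, below the threshold on all 3 arrays.

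Of the transcriptional regulators, Srf and Mkl1 were called and Myocd was not. Srf had 7.22, 6.43 and 6.77 on arrays 1, 2 and 3 (adjusted p = 0.00106). Mkl1, the MRTF coactivator that responds to free actin, had 7.45, 7.27 and 6.81 (adjusted p = 1.52e-04). Myocd, the gene of myocardin, the coactivator restricted to smooth and cardiac muscle, had 5.47, 5.48 and 5.15, a margin of -0.20. Its value exceeded the threshold only on array 1. At the 99th percentile threshold, neither Srf (adjusted p = 1.0) nor Mkl1 (0.12) was called.

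SRF binds the CArG box, and the promoters of the 51 genes were searched for it in RefSeq windows of assembly GRCm38.p6, from 250 bases before to 50 bases after a gene's start. The pattern was CCWWWWWWGG, where W is A or T, which reads the same on both strands, and no other motif was searched. Boxes that differ from it by a letter, or lie outside the window, were not counted. A window was at hand for 42 of the 51 genes. Of the 42, 5 (11.9%) held a CArG box of this pattern, compared with 1.64% of the 14773 tested genes that had a window. The genes were chosen by name, with Srf and many genes of the apparatus it drives among them, so this contrast depends on that choice. It was not tested. The 5 genes were Cnn2, Myl6, Myl9, Srf and Vcl, all above background. The 9 genes without a window, which were not searched, were Actg2, Heyl, Higd1b, Itpr1, Myh11, Myocd, Ndufa4l2, Rock1 and Tagln. Of the genes with a window, 33 were called, 8 were not and Rock2 was not measured. A box was held by 5 of the 33 and 0 of the 8, and whether boxes go with calls was not tested. The windows of Cnn2 (chr10:79988350-79988649, plus strand), Myl6 (chr10:128492960-128493259, minus strand), Myl9 (chr2:156775214-156775513, plus strand) and Srf (chr17:46556113-46556412, minus strand) are shown 5′ to 3′ on the gene's strand, with boxes of this pattern in capitals, since they hold the motif of the called regulator.
Cnn2: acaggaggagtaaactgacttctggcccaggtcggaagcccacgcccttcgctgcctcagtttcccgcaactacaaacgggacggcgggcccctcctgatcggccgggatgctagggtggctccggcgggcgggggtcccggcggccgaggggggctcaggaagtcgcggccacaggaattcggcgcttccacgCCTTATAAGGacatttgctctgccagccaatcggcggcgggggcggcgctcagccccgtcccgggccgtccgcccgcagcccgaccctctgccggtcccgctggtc
Myl6: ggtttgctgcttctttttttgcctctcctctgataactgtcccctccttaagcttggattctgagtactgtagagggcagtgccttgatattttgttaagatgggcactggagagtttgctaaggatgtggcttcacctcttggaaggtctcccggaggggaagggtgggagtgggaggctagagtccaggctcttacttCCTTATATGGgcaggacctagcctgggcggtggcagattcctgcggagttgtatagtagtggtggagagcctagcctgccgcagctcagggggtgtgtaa
Myl9: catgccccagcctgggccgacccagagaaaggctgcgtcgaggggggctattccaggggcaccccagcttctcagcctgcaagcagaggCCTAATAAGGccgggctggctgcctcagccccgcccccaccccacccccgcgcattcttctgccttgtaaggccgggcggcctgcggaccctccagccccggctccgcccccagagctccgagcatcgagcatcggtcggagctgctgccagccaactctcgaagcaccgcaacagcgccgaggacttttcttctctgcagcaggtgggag
Srf: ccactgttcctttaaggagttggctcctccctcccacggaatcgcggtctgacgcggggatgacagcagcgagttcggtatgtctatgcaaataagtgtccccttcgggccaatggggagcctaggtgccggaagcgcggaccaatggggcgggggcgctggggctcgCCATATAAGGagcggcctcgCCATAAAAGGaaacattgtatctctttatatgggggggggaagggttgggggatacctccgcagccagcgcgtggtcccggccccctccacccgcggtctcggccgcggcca
The first box began 56 bases before the start of Cnn2, 50 before that of Myl6, 161 before that of Myl9 and 82 before that of Srf, whose window held 2 boxes. In Vcl it began 227 bases before the start. These are matches of letters and do not show binding. On the arrays, Srf, Myl9 and Vcl had their highest value on array 1, as 22 of the 50 genes and 7080 of all 18865 genes did. Cnn2 had its highest value on array 3, and the values of Myl6 differed by no more than 0.06.

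Of 6 pericyte markers 4 (66.7%) were called, against 50.6% of all genes. At the 99th percentile threshold 2 (33.3%) were called, against 20.1% of all genes. Rgs5, a regulator of G protein signalling used as a pericyte marker, had 8.39, 8.25 and 6.37 on arrays 1, 2 and 3, a margin of 2.10 (adjusted p = 9.53e-04), and was not called at the 99th percentile (adjusted p = 0.107). Rgs4, a related regulator of G protein signalling, had 7.60, 7.93 and 9.27 (adjusted p = 4.05e-05). Array 3 was thus the lowest for Rgs5 and the highest for Rgs4, and every value of both genes was above its threshold. Heyl, a Notch target of mural cells, had 8.37, 8.70 and 7.90 (adjusted p = 6.50e-06). Anpep, the gene of aminopeptidase N (CD13), had 6.67, 6.52 and 5.91 (adjusted p = 0.00917), and the call was lost without array 1 (adjusted p = 0.0628) and with the 75th percentile over probesets (0.0735).

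Higd1b and Ndufa4l2, mitochondrial protein genes used as pericyte markers, were not called. Higd1b had 5.30, 6.12 and 5.94 (adjusted p = 0.256) and Ndufa4l2 had 5.09, 5.76 and 5.61 (adjusted p = 0.996). Both genes were below the threshold on array 1. Higd1b was called at the 90th percentile of the background genes (adjusted p = 0.0101).

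Among the genes of vascular tone and calcium handling, 4 of 7 (57.1%) were called, near the 50.6% of all genes. Rgs2, which dampens signalling by constrictor receptors, had 10.57, 8.995 and 9.04 on arrays 1, 2 and 3 (adjusted p = 1.19e-05). Prkg1, the cGMP-dependent kinase that relaxes smooth muscle, had 9.05, 8.92 and 7.86 (adjusted p = 1.48e-05). Itpr1, a calcium release channel of the endoplasmic reticulum, had 7.944, 8.004 and 8.028, which differed by no more than 0.08.

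The subunits of soluble guanylate cyclase, the nitric oxide receptor that works as a heterodimer, differed. Gucy1a3 had 7.10, 7.80 and 7.12 (adjusted p = 5.48e-05), whereas Gucy1b3 had 4.84, 5.23 and 5.13, below the threshold on all 3 arrays. Ryr2, the ryanodine receptor of heart muscle, had 4.64, 4.94 and 4.73, also below it on all 3. Pln, the gene of the calcium pump inhibitor phospholamban, had 4.61, 6.38 and 5.68 (adjusted p = 0.798), with arrays 2 and 3 above the threshold and array 1 below.

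The probesets of a gene lie at different places of its transcripts, so their spread holds both probe affinity and the use of exons, which cannot be told apart here. Over all probesets of the 50 genes, 520 of 1254 (41.5%) exceeded a probeset threshold on all 3 arrays, the 95th percentile of the background genes' probesets. The share was 25.1% for the probesets of all genes and 3.69% for those of the background genes. For Actn4 it was 25 of 26 probesets, for Myl6 15 of 16, for Rock1 34 of 39, for Heyl 12 of 14 and for Tpm1 17 of 22.

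Some genes near the background had a few bright probesets. Myh11 had 9 of 50 above the probeset threshold, with a highest probeset mean of 12.23 and a next of 10.99, against a median of 6.29 over these probeset means. Myh10 had 4 of 56, with 11.56 and 9.17 as its highest values. Ryr2 had 8 of 120, with 10.14 for the brightest, and Cnn1 had 2 of 13, with 9.11 and 8.34. Myocd had 5 of 24, the brightest at 10.03 and the next at 9.59. No probeset passed in 6 of the genes, namely Lmod1, Pdlim3, Gucy1b3, Higd1b, Ndufa4l2 and Pln. The plot of probesets by gene shows these single high points apart from the bulk of their gene.

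The 3 arrays agreed for most of these genes. The median SD was 0.25 for the 50 genes, against 0.27 for all 18865. The range over the arrays exceeded 1 for 7 genes (14%), where 15.8% of all genes had such a range. Of the 7, 5 were pericyte and vascular tone genes, namely Rgs5, Pln, Rgs4, Rgs2 and Prkg1, and the others were Tagln2 and Myl9. Rgs5, Tagln2 and Prkg1 were lowest on array 3, Rgs2 and Myl9 were highest on array 1, Rgs4 was highest on array 3 and Pln lowest on array 1. Each array is a single sample, so these differences have no test.

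Endothelial genes also differed between arrays, in another way. Of 16 measured endothelial genes 11 (68.8%) were called, against 50.6% of all genes, and 0 passed the 99th percentile threshold in limma's test, against 20.1%, with 5 at an unadjusted p below 0.05. Array 2 was the lowest for 15 of them, and their median deviation from the 3-array mean was 0.29, -0.86 and 0.67 on arrays 1, 2 and 3. Their summed level on the linear scale was 3337, 1105 and 4490, and the lowest gene value on any array was 4.89. The largest margins were those of Cdh5, Emcn and Pecam1, with 9.14, 6.05 and 9.58 for Cdh5, 8.50, 6.75 and 9.16 for Emcn and 8.92, 6.73 and 8.46 for Pecam1, and the smallest that of Sox17 (5.59 ± 0.39, SD, n = 3). The median deviation of the pericyte and vascular tone genes was -0.15, 0.27 and -0.01, and that of the contractile genes 0.08, -0.04 and 0.02. Of the 13 pericyte and vascular tone genes, 1 was lowest and 7 were highest on array 2. Of all 18865 genes, 6200 were lowest and 6651 highest on that array. The part of endothelial RNA in these genes' values was not tested.

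**Figure D3:**
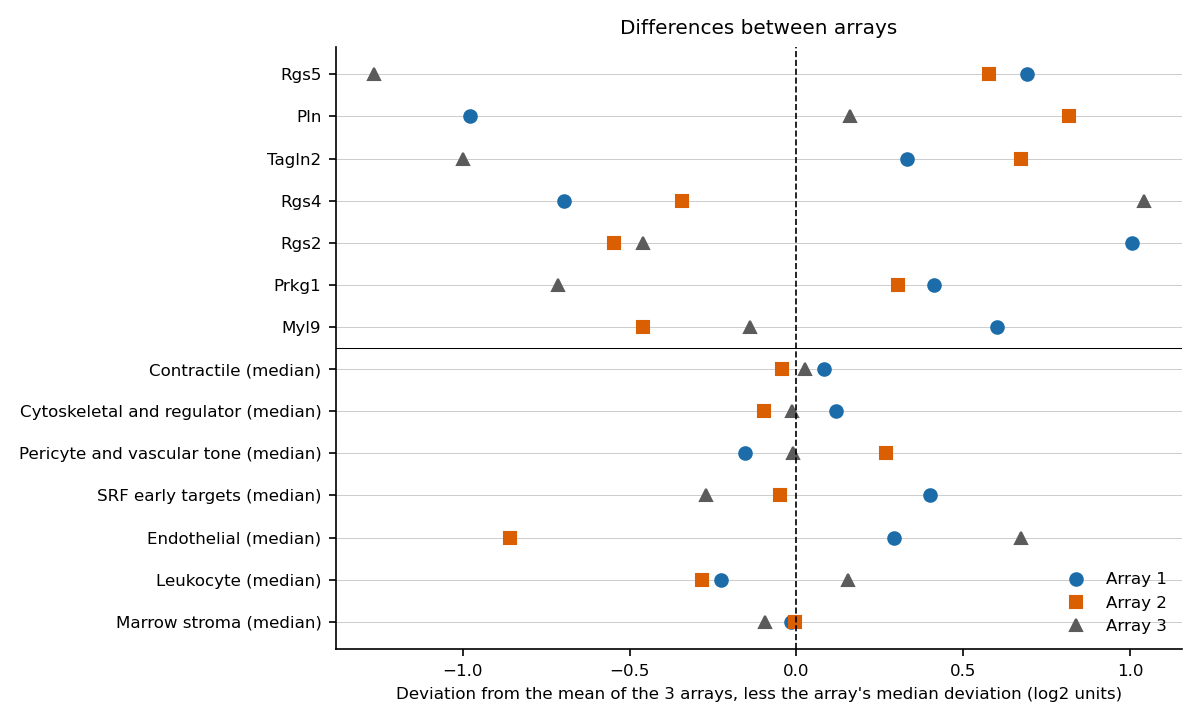
Symbols give each array's deviation from the mean of the 3 arrays, less the median deviation of all genes on that array, in log2 units, for the 7 genes with a range above 1 (upper rows) and for the median of gene lists (lower rows). Rgs5 lies at -1.26 on array 3, whereas the endothelial list has its low value, -0.86, on array 2.

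Further genes of the same cell types and pathways were read from lists that share no gene with the 50. Of 15 other pericyte genes 10 were called, a share of 66.7% against 50.6% for all genes. Angpt1, the Tie2 ligand, stood at 11.04 ± 0.09 (SD, n = 3), Pdgfrb, the receptor that recruits mural cells, at 9.83 ± 0.34, and the nucleotide-sugar receptor gene P2ry14 had 9.39, 8.99 and 7.48 on arrays 1, 2 and 3. The 5 genes not called were Art3, with the smallest margin (4.85 ± 0.51), Cspg4, Foxf2, Tbx18 and Vtn. P2ry14, like Rgs5, was lowest on array 3. The genes of the potassium channel of mural cells, Abcc9 and Kcnj8, were named after their values were seen. Both were lowest on array 2, with 8.36, 7.10 and 9.30 for Abcc9 and 7.17, 5.72 and 6.96 for Kcnj8. Of the 15 genes, 6 were lowest on array 2 and 7 on array 3. Of all 18865 genes, 6200 were lowest on array 2 and 6966 on array 3.

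Of 16 other smooth muscle genes 10 (62.5%) were called, against 50.6% of all genes. Only Palld, the gene of the actin scaffold palladin (8.09 ± 0.16, SD, n = 3), passed the 99th percentile threshold. This was 6.25% of the list, against 20.1% of all genes. Fhl1, a LIM protein gene, stood at 6.96 ± 0.79, and Nexn, which encodes an actin-binding protein, at 6.88 ± 0.53. Casq2, the calcium-binding protein gene of the sarcoplasmic reticulum, had the smallest margin (3.92 ± 0.19).

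Early target genes of SRF were called in 9 of 12 cases, where 50.6% of all genes were. At the 99th percentile threshold 9 of the 12 were called, where 20.1% of all genes were. Fosb stood at 10.13 ± 0.33 (SD, n = 3), Ccn1, a matrix-associated signalling protein gene, at 10.08 ± 0.52 and Ccn2 at 9.66 ± 0.44, and Ankrd1 had the smallest margin (4.71 ± 0.17). Of the 12 genes, 10 were highest on array 1, with a median deviation of 0.40, -0.05 and -0.27 on arrays 1, 2 and 3. Array 1 was the highest for 22 of the 50 genes described here and for 7080 of all 18865 genes.

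Markers of blood cells that use the same cytoskeletal genes were mostly not called. Of 14 leukocyte genes 4 (28.6%) were called, against 50.6% of all genes. The summed linear level of the 14 genes was 1621, 1580 and 1722 on arrays 1, 2 and 3. The called genes with the largest margins were Arhgdib (9.45 ± 0.26, SD, n = 3), Lcp2 (8.47 ± 0.51) and Rac2 (6.67 ± 0.46), and Cd48 had the smallest (3.70 ± 0.48). Of 8 megakaryocyte genes 2 were called, Gp9 (6.26 ± 0.17) and Treml1 (6.13 ± 0.13), and Gp6 had the smallest margin (5.11 ± 0.16). Platelets and leukocytes carry Tln1, Flna, Myh9 and Tpm4, and the part of such cells in the values of these 4 genes was not tested.

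**Figure D4:**
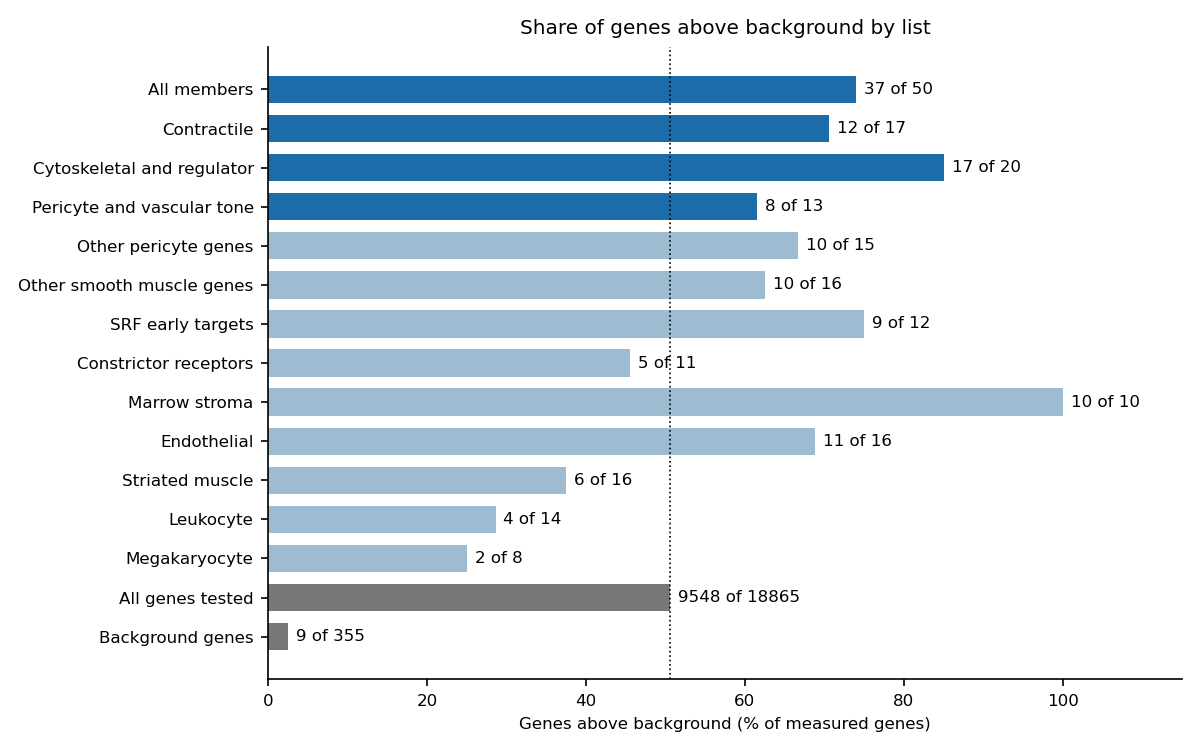
Bars give the percentage of measured genes above background for the 50 genes, their classes and the other lists, with counts beside the bars; the dotted line marks 50.6%, the share of all genes tested. The cytoskeletal and regulator genes (17 of 20) and the marrow stroma list (10 of 10) lie above that line, and the leukocyte (4 of 14) and megakaryocyte (2 of 8) lists lie below it.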

How the data were processed

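The deposited values are on the log2 scale, 1 per probeset and array. The authors used Affymetrix Expression Console 1.1 with RMA, per the submitters' processing notes. The sources used here do not give the RMA settings or the annotation build. Each of the 3 arrays had 1256831 probesets with medians of 5.20, 5.22 and 5.24. The number of arrays limits the precision. No scanner intensities, slide numbers or scan dates were used here, so such batches were not examined. The platform annotation gave 318760 probesets 1 symbol, and older symbols were updated through RefSeq synonyms.

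Gene values were medians over at least 4 probesets. The value minus the array's background threshold was fitted with an intercept in limma 3.58.1 (R 4.3.3), one-sided, with Benjamini-Hochberg adjustment over 18865 genes. There was no filter on low values. A further gene list is not reported here. The members, gene lists (other pericyte, other smooth muscle, SRF early targets, constrictor receptors, marrow stroma, endothelial, striated muscle, leukocyte, megakaryocyte), tests and alternatives were chosen with earlier results of these data known. Named genes were all members and, of each list, up to 3 called genes with the largest margin and the 1 with the smallest. Abcc9, Kcnj8, Cspg4, Foxf2, Tbx18 and Vtn were added after their values were seen. Promoters printed were the first 4 with a CArG box in alphabetical order.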

Additional observations from a re-analysis of the deposited data

How the results depend on the processing

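Alternatives were another summary of probesets, another percentile of the background genes, at least 8 probesets a gene, limma's trend, 1 threshold for all arrays, probesets at 0 left out and each array left out. The strictest was the 99th percentile of 355 background genes, a threshold set by few genes. It called 24 of the 50 genes, 11 cytoskeletal and regulator genes and 5 pericyte and vascular tone genes, and 8 contractile genes. Called genes whose mean then lay below the threshold were Acta2 (-0.77), Myh11 (-0.63), Synpo2 (-0.51), Ppp1r12b (-0.46), Anpep (-0.42) and Zyx (-0.088), since the threshold itself was higher. The means of Rgs5, Srf, Mkl1, Gucy1a3, Cnn2, Tln1 and Pdlim7 stayed above it, but these genes were no longer called. Rgs5 on array 3 (6.37) and Srf on array 2 (6.43) lay below the thresholds of those arrays, 6.64 and 6.85. The 90th percentile called 41 of the 50, where it called 63.5% of all genes. With the 75th percentile over probesets Acta2 lay at -0.038 and Anpep lost its call, and the cause was not tested. The median margin of 1.84 was 0.61 at the 99th percentile, 2.27 at the 90th, 1.52 with the 75th percentile over probesets and 2.30 with at least 8 probesets, which left 42 of the genes. Leaving out each array gave 34 to 36 calls, with 45.4% to 48.5% of all genes called. Without array 2 limma's fit used the same variance for all genes, unlike the fit of all 3 arrays. Under all other alternatives run the counts by class stayed within 1.5 times those reported. No named probeset was at 0, so leaving out such probesets changed nothing. The count of genes with a range above 1, with alternatives chosen after seeing the data, was 6 to 8. No paired analysis was possible because the 3 arrays form 1 group.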

Other observations

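Of 11 measured receptor genes for vasoconstrictors 5 were called (45.5%, against 50.6% of all genes). The prostaglandin F receptor gene Ptgfr had 7.41, 7.96 and 8.16 on arrays 1, 2 and 3 (adjusted p = 9.46e-06, limma). The angiotensin receptor gene Agtr1a had 6.41, 7.55 and 6.12 (adjusted p = 0.00392, limma), and the serotonin receptor gene Htr2b had 6.99, 6.30 and 5.81 (adjusted p = 0.0198, limma). The muscarinic receptor gene Chrm3 had the smallest margin (4.98 ± 0.32, SD, n = 3).

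Of 16 striated muscle genes 6 were called (37.5%, against 50.6% of all genes). Tnnt1, the slow skeletal muscle troponin T gene, had 9.34, 9.39 and 9.31 on arrays 1, 2 and 3, a margin of 3.78 (adjusted p = 6.27e-07, limma). Tnnt3 stood at 7.23 ± 0.31 (SD, n = 3) and Tnni2, both genes of fast muscle troponin subunits, at 6.78 ± 0.12. The titin gene Ttn had the smallest margin (4.69 ± 0.05). Only Tnnt1 of this list passed the 99th percentile threshold.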
